A study of Mus musculus with 39 samples.

Results

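The 9 genes described here are 4 genes of mature B cells (Cd79a, Cd79b, Ms4a1 and Fcrla) and 5 genes of developing B cells (Vpreb1, Vpreb3, Igll1, Rag1 and Dntt). They were found by their symbols among the 23412 genes of each library, and all 9 were present. Messenger RNA was sequenced in 39 libraries from wild-type mice, 22 from dura mater, the tough outermost covering of brain and spinal cord, and 17 from masseter, a jaw-closing muscle. In dura, all 3 groups were sampled 2 days after injection: 12 libraries after 10 U of the collagen-cutting enzyme collagenase type I in the temporal muscle on the side of the skull (collagenase TM), 4 after saline in the temporal muscle (saline TM) and 6 after saline at a site that the labels do not name (saline). The titles of these 6 libraries read naive, and the treatment label was followed.

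In masseter, collagenase at 0.2 to 0.5 U per dose was given 4 times, either in the masseter itself (MM), in mice sampled at day 38 (3 libraries) or day 52 (3 libraries), or in the temporal muscle, in mice sampled at day 28 (3 libraries). The masseter controls had saline in the masseter and were sampled at day 28 (4 libraries) or day 38 (4 libraries). No saline group was sampled at day 52, and no masseter control had saline in the temporal muscle. The labels give neither strain nor age, and they do not say that each library came from a separate animal, so p-values measure only the spread between these samples. A library held 18.2 to 32.35 M (mega) counts in dura and 12.1 to 28.1 M in masseter.

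B cells are made in bone marrow and then circulate through blood and lymphoid tissue. A precursor first cuts and joins its immunoglobulin gene segments with the Rag1 and Rag2 recombinase, while the polymerase made by Dntt adds bases at the joints. It then shows a surrogate light chain, built from Vpreb1 and Igll1, on its surface as part of the pre-B cell receptor. A mature B cell carries a complete receptor that signals through the paired chains Cd79a and Cd79b, as the pre-B cell receptor also does, and carries Ms4a1 (CD20) on its membrane. Fcrla is an Fc receptor-like protein kept inside B cells, and Vpreb3 binds newly made immunoglobulin chains within the cell. Rag1 and Dntt are also used by developing T cells, and the dura lies against skull bone that contains marrow.

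The members with start-site sequence are shown because these genes are known to depend on shared B lineage factors and all had negative fold changes in dura after collagenase. Windows of 250 bases before the transcript start that the RefSeq promoter table uses (GRCm38.p6, the same build as mm10) were matched for 7 of the 9 members. The windows of Vpreb3 and Fcrla precede a start inside the full RefSeq span of the gene (75943024 to 75949657 on chromosome 10 for Vpreb3), so positions there count from that inner start. Of the 7, 5 follow, each read 5′ to 3′ on the strand of the gene, and those of Fcrla and Dntt are not shown. Capitals mark every match, on either strand, to the E-boxes CACCTG and CAGCTG, bound by factors such as E2A, to CCCNNGGG, the core that EBF1 recognises, and to the octamer ATGCAAAT, bound by Oct factors.
Cd79a (chr7:24897247-24897496, plus strand): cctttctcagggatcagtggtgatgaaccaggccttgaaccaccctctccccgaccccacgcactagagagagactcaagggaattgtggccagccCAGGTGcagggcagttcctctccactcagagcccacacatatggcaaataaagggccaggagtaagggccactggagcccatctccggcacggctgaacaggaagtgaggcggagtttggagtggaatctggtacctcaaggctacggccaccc
Vpreb3 (chr10:75948050-75948299, plus strand): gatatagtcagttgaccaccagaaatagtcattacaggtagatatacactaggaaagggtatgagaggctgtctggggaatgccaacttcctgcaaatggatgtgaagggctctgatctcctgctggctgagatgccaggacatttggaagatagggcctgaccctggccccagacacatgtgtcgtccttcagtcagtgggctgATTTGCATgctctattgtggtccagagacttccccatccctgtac
Vpreb1 (chr16:16869256-16869505, minus strand): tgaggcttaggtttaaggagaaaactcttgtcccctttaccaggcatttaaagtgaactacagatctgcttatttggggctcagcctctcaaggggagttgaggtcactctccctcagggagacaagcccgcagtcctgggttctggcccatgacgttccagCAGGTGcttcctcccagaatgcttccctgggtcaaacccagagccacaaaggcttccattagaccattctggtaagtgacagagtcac
Igll1 (chr16:16863986-16864235, minus strand): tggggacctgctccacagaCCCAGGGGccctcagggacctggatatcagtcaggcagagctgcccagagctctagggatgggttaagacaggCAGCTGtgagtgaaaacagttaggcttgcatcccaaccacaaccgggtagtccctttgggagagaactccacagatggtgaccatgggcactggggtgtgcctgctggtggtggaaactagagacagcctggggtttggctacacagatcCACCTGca
Rag1 (chr2:101649533-101649782, minus strand): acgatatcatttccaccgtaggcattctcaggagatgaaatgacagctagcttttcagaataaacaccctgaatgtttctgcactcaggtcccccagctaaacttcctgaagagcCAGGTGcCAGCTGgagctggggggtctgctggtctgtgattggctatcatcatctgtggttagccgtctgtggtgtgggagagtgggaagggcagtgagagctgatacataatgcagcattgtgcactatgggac

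CACCTG was found in 5 of the 7 windows (Cd79a, Fcrla, Vpreb1, Igll1 and Rag1) and in 17.2% of all 32851 RefSeq windows of the same length. CAGCTG was found in Igll1 and Rag1, and in 13.0% of all windows. In Rag1 the 2 E-boxes stood side by side, at 135 to 130 and 128 to 123 bases before the start. CCCNNGGG was found in Igll1 alone of the 7 (11.8% of all windows), and the octamer in Vpreb3 alone, 45 to 38 bases before its inner start (1.6% of all windows). The Dntt window held no match to any of these motifs. Vpreb1 and Igll1 are neighbours on chromosome 16, with 4415 bases between them (16868401 to 16869255 and 16860671 to 16863985). A match describes letters and is not evidence of binding.

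The level of each transcript is given as counts per M counts on scaled library sizes (CPM) for comparisons between groups, and as TPM, which is scaled for transcript length, for comparisons between genes. By median TPM in dura saline TM, Cd79a (49.1) and Cd79b (32.7) stood highest, then Vpreb3 (10.6), Fcrla (9.62), Vpreb1 (6.25), Ms4a1 (6.12), Dntt (2.37), Igll1 (2.25) and Rag1 (0.485). All 9 members were thus present in dura, the precursor genes included. Neighbours from Vpreb3 to Ms4a1 in that order had overlapping ranges, except Fcrla and Vpreb1, as had Dntt and Igll1. Reads of Vpreb1 may be divided with its near-identical paralog Vpreb2, which had at most 7.99 counts in any dura library.

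The dura libraries differed in more than their treatment. All 12 collagenase TM libraries were paired-end and all 10 saline libraries were single-end, as told from the deposited effective lengths, so read layout and collagenase cannot be told apart. Xist, the RNA that coats a silenced X chromosome, lay between 531 and 622 CPM in collagenase libraries 7 to 12. It was at most 0.841 CPM in libraries 1 to 6 and at most 0.362 CPM in saline TM. In saline it was at 584 to 726 CPM in the 3 libraries titled F and at most 3.29 CPM in the 3 titled M. Cd79a was at 12.3 to 16.7 CPM in those titled F and 8.85 to 12.0 CPM in those titled M. Rag1 was at 1.19 to 1.97 and 0.852 to 0.939 CPM. Dntt (1.60 against 1.11 CPM) and Igll1 (0.880 against 0.839 CPM) had the higher mean in those titled M. The part of this in the comparisons was not tested. Transcripts of neighbouring tissue were high in some collagenase libraries: brain Gad1 in libraries 1 and 7, muscle Ckm in libraries 4, 7 and 8, and pituitary Gh in library 6. Dura fibroblast genes were present in every group, with Mgp at 429 to 4546 CPM over the 22 libraries.

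After collagenase in the temporal muscle, the mature B cell genes were lower in dura than after saline in the same muscle. All 4 of 4 fell, by log2 fold changes between -2.42 and -1.67, and their libraries did not overlap between the groups. Over all 16363 genes tested, 11.1% were called lower in this comparison, and 4.14% were lower with no overlap. A gene was called when the adjusted p of edgeR's quasi-likelihood test, with Benjamini-Hochberg adjustment over all genes tested, was under 0.05. In bulk tissue, fewer cells of a type and less RNA per cell cannot be told apart.

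Cd79a, a signalling chain of the B cell receptor, had a lowest, median and highest value of 2.01, 5.41 and 12.6 CPM over the 12 collagenase TM libraries, against 28.1, 35.8, 32.3 and 29.9 CPM in saline TM libraries 1 to 4. The highest collagenase library was thus under the lowest saline TM library. The log2 fold change was -2.42 ± 0.28 (SE, adjusted p = 2.60e-06). Its partner chain Cd79b was at 2.14, 5.68 and 9.73 CPM (lowest, median, highest) in collagenase TM, against 21.8, 17.2, 15.7 and 20.0 CPM in saline TM, a log2 fold change of -1.67 ± 0.25 (adjusted p = 5.81e-05). These groups did not overlap either.

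Ms4a1, the membrane protein CD20, was at 0.581, 1.80 and 2.81 CPM (lowest, median, highest) in collagenase TM, against 9.23, 4.63, 6.28 and 5.92 CPM in saline TM, a log2 fold change of -1.93 ± 0.27 (adjusted p = 2.61e-05). Fcrla was at 0.492, 1.41 and 3.10 CPM in collagenase TM, against 7.32, 8.37, 8.17 and 7.31 CPM in saline TM, a log2 fold change of -2.18 ± 0.31 (adjusted p = 2.95e-05). Fcrla was the most even of the mature genes within saline TM.

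**Figure D1:**
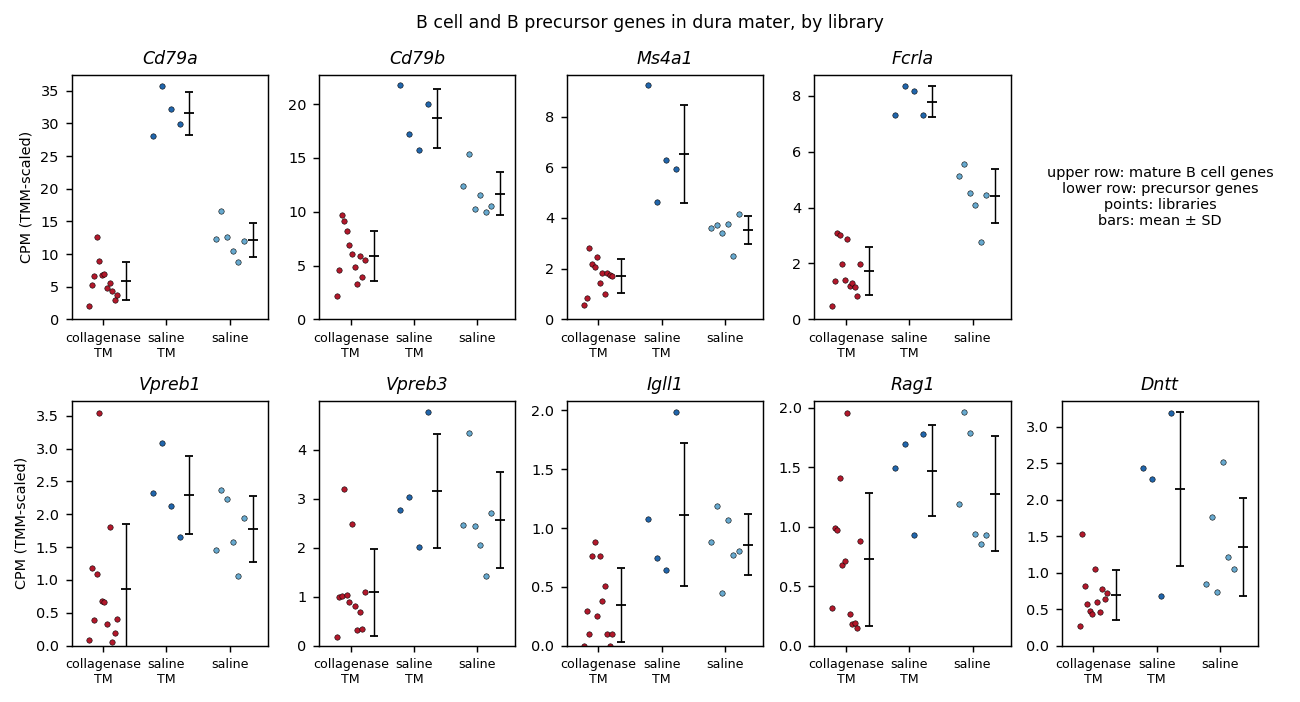
CPM of the 9 genes in every dura library (points), by group from left to right: collagenase TM (n = 12), saline TM (n = 4) and saline (n = 6). Bars are mean ± SD, cut at 0. Mature genes (upper row) separate collagenase TM from saline TM in full, while the precursor genes (lower row) overlap between all groups.

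The precursor genes were lower too, but less uniformly. All 5 had negative fold changes against saline TM, with a median of -1.54 on the log2 scale, and 2 of 5 (Vpreb3 and Dntt) were called. The unadjusted p was under 0.05 for all 5, as for 39.1% of all genes in either direction. The collagenase TM and saline TM libraries overlapped for each of them. Over all genes tested the median log2 fold change was 0.06.

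Vpreb3 was at 0.179, 0.941 and 3.19 CPM (lowest, median, highest) in collagenase TM, against 2.77, 3.04, 2.01 and 4.76 CPM in saline TM, a log2 fold change of -1.54 ± 0.47 (adjusted p = 0.0209). Only collagenase libraries 4 and 7, at 3.19 and 2.48 CPM, reached the saline TM range. The call ended without saline TM library 4 (log2 -1.27, adjusted p = 0.1025), with an offset for effective length (-1.14), in a fit of these groups alone (-1.53) and with collagenase libraries 1 to 6 alone (-1.38). Dntt, the polymerase that adds bases without a template, was at 0.268, 0.614 and 1.53 CPM in collagenase TM, against 2.44, 2.29, 0.684 and 3.20 CPM in saline TM, a log2 fold change of -1.63 ± 0.37 (adjusted p = 0.00300). Saline TM library 3 was low and lay within the collagenase range.

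The surrogate light chain genes did not pass the test. Vpreb1 was at 0.0486, 0.541 and 3.54 CPM in collagenase TM, against 2.32, 3.09, 2.13 and 1.66 CPM in saline TM (log2 -1.40 ± 0.62, adjusted p = 0.0974). Collagenase library 5 stood above every saline TM library, and without it Vpreb1 was called, at log2 -1.89 (adjusted p = 0.0125). Igll1 was at 0, 0.273 and 0.886 CPM in collagenase TM, against 1.08, 0.747, 0.644 and 1.98 CPM in saline TM (log2 -1.69 ± 0.63, adjusted p = 0.0544). It was at 0 counts in 2 of the 12 collagenase libraries. Its adjusted p ranged from 0.0281 to 0.230 over the fits without 1 library.

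Rag1, the catalytic chain of the recombinase, was at 0.146, 0.695 and 1.96 CPM in collagenase TM, against 1.49, 1.69, 0.925 and 1.78 CPM in saline TM (log2 -1.02 ± 0.49, adjusted p = 0.127). Collagenase library 7 held the highest value of all 16 libraries, and without it Rag1 was called, at log2 -1.28 (adjusted p = 0.0424). Library 7 is one of those with Gad1 and Ckm. Without the 5 collagenase libraries high in Gad1, Ckm or Gh, 8 of 9 members were called lower than saline TM, against 6 with them, while the share over all genes was 16.1% without them and 11.1% with them.

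Set against the 6 saline libraries, collagenase TM was lower as well, by smaller amounts for every member. The same 12 collagenase libraries enter both comparisons, so they are not independent. The 4 mature genes fell by log2 fold changes between -1.36 and -0.995, and 2 of 5 precursor genes (Vpreb3 and Dntt) fell. Over all genes tested, 15.3% were called lower here. Only Cd79b showed no overlap between the groups, where 4.98% of all genes were lower with no overlap.

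Cd79b was at 2.14 to 9.73 CPM in collagenase TM, against a lowest, median and highest value of 9.98, 11.0 and 15.4 CPM in saline (log2 -0.995 ± 0.23, adjusted p = 0.00272). Cd79a was at 2.01 to 12.6 CPM in collagenase TM, against 8.85, 12.1 and 16.7 CPM in saline (-1.04 ± 0.26, adjusted p = 0.00468), with 2 collagenase libraries, 4 and 5, inside the saline range. Ms4a1 was at 0.581 to 2.81 CPM in collagenase TM, against 2.52, 3.67 and 4.14 CPM in saline (-1.04 ± 0.25, adjusted p = 0.00348). Fcrla had the largest difference of the mature genes, at 0.492 to 3.10 CPM in collagenase TM, against 2.76, 4.47 and 5.57 CPM in saline (-1.36 ± 0.28, adjusted p = 0.00123). With collagenase libraries 1 to 6 alone, the calls of Cd79a (log2 -0.78) and Cd79b (-0.78) ended, and 2 of 9 members were called lower, with 9.37% of all genes.

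Of the precursor genes, Vpreb3 was at 0.179 to 3.19 CPM in collagenase TM, against 1.42, 2.45 and 4.34 CPM in saline (log2 -1.25 ± 0.42, adjusted p = 0.0273). Dntt was at 0.268 to 1.53 CPM in collagenase TM, against 0.730, 1.14 and 2.52 CPM in saline (-0.96 ± 0.34, adjusted p = 0.0322). Both calls ended with limma on TPM (log2 -1.13 and -0.86) and without saline library 2 (-1.03 and -0.87). That of Dntt also ended without saline library 4 (-0.69) and without collagenase libraries 1, 4, 6, 7 and 8 (-0.81). It ended as well with collagenase libraries 1 to 6 (-0.99) or 7 to 12 (-0.95) alone. That of Vpreb3 also ended with an effective length offset (-0.84) and with collagenase libraries 1 to 6 alone (-1.09). Vpreb1 (-1.03 ± 0.55, adjusted p = 0.146), Igll1 (-1.32 ± 0.57, adjusted p = 0.0759) and Rag1 (-0.82 ± 0.44, adjusted p = 0.143) did not pass the test.

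**Figure D2:**
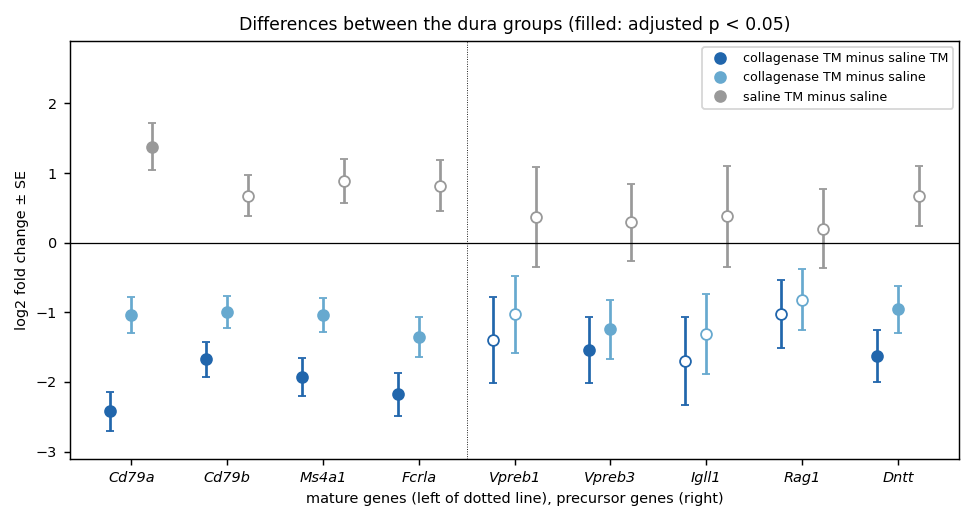
Log2 fold change ± SE of the 9 genes (x axis) for collagenase TM minus saline TM, collagenase TM minus saline, and saline TM minus saline. Filled points have an edgeR adjusted p under 0.05; all 18 values of the collagenase comparisons lie below 0, and Cd79a alone is filled in the comparison of the saline groups.

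Between the single-end control groups, which also differ in Xist, the mature genes were higher in saline TM than in saline. Cd79a alone was called (log2 1.38 ± 0.34, adjusted p = 0.0269), where 2.01% of all genes were called higher. It was at 28.1 to 35.8 CPM in saline TM, against 8.85 to 16.7 CPM in saline. The Cd79a call ended without any 1 of saline TM libraries 2, 3 and 4 or of saline libraries 1, 4 and 5, with the log2 fold change at 1.30 to 1.49 over all fits without 1 library. The groups did not overlap for any of the 4 mature genes, as for 10.3% of all genes that were higher with no overlap.

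Cd79b (log2 0.68 ± 0.30), Ms4a1 (0.88 ± 0.32) and Fcrla (0.82 ± 0.37) did not pass the test, with adjusted p of 0.201, 0.116 and 0.210. In a fit of the control groups alone, all 4 mature genes were called, with 14.8% of all genes called higher in that fit. The precursor genes differed by 0.20 to 0.67 on the log2 scale, with adjusted p of at least 0.401. The ratio of Cd79a to Cd79b in TPM was 1.16 to 1.87 in saline TM, against 0.797 to 1.10 in saline. Over the 12 collagenase TM libraries the same ratio was 0.602 to 1.495. The chains thus stood in unequal proportion in the control groups, with no overlap of the ratio.

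The precursor genes made up 14.8 to 39.4% of the summed TPM of the 9 members in collagenase TM, against 14.3 to 24.0% in saline TM and 23.5 to 30.3% in saline. The collagenase range overlapped that of both control groups. The share therefore did not separate collagenase TM from the controls, whereas summed mature CPM separated it from saline TM but not in full from saline (5.23 to 27.0 CPM in collagenase TM, against 62.4 to 66.4 CPM in saline TM and 24.1 to 41.3 CPM in saline).

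Other genes of the B lineage were counted from lists chosen with earlier results of these data known. Of 20 other mature B cell genes tested, 15 fell and 0 rose against saline TM (median log2 -1.19), and 12 fell and 0 rose against saline (median -0.71). For scale, here and for the dura lists below, 11.1% of all genes were called lower and 13.3% higher against saline TM. Against saline these shares were 15.3% and 21.4%. Faim3, the Fc receptor for IgM, was at 0.805 ± 0.4658 CPM (SD, n = 12) in collagenase TM, against 5.00 ± 1.13 CPM (n = 4) in saline TM and 2.09 ± 0.370 CPM (n = 6) in saline. Spib, a transcription factor of B cells, was at 5.36 ± 2.13 CPM in collagenase TM, against 20.4 ± 4.75 CPM in saline TM and 10.7 ± 2.38 CPM in saline. Cd22, an inhibitory co-receptor, fell by log2 -1.19 against saline TM (adjusted p = 2.54e-04), and Cd72, another inhibitory receptor, by -0.99 against saline (adjusted p = 9.40e-04).

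The wider list of precursor genes did not move with the members. Of 12 tested, 2 rose (Sox4 and Ebf1) and 1 fell (Rag2) against saline TM, and 5 rose and 0 fell against saline. Rag2, the partner of Rag1 in the recombinase, was at 0.167 ± 0.198 CPM in collagenase TM, against 0.642 ± 0.325 CPM in saline TM (log2 -1.94, adjusted p = 0.0425). Ebf1, a transcription factor of the B lineage that adipocyte and stromal cells also make, was at 18.9 ± 5.91 CPM in collagenase TM, against 9.72 ± 1.80 CPM in saline TM and 7.31 ± 1.26 CPM in saline. Sox4, a factor of many progenitor cells, was at 53.2 ± 22.9 CPM, against 5.26 ± 1.80 and 5.48 ± 0.484 CPM in the same controls. Sox4, Ebf1, Cplx2 and Arpp21 are made in cell types other than B precursors, so that list is not specific to the lineage.

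Plasma cell genes went both ways. Of 8 tested, 2 fell and 0 rose against saline TM, and 2 fell and 1 rose against saline. Tnfrsf17, the plasma cell survival receptor BCMA, fell in both comparisons (log2 -1.46 and -1.25, adjusted p = 5.23e-04 and 7.28e-04). Igj, the chain that joins secreted IgM and IgA, was at 126 ± 91.8 CPM in collagenase TM, against 214 ± 77.5 CPM in saline TM and 31.5 ± 8.51 CPM in saline. It was called higher against saline (log2 2.00, adjusted p = 0.00635) and not called against saline TM, where its mean was lower.

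Markers of other cells that could come with B lineage RNA were read beside the members. Of 14 T cell and thymocyte genes, 1 (Cd2) fell and 0 rose against saline TM, and edgeR called 0 against saline, with 0 at an unadjusted p under 0.05. Their summed level was 92.4 to 300.4 CPM in collagenase TM, against 119 to 176 CPM in saline TM and 123 to 229 CPM in saline, and all 16 in the files were detected in every control. The granulocyte precursor list also holds genes of mature neutrophils, so it is not specific to marrow. Of its 17 genes, 9 fell and 0 rose against saline TM and 1 fell against saline. Their summed level was 159 to 2137 CPM in collagenase TM, against 1066 to 3324 CPM in saline TM and 533 to 1130 CPM in saline, with all 17 detected in every dura library. Of 14 erythroid genes, 3 fell and 1 rose against saline TM, and 4 fell and 1 rose against saline. The part of these cells in the members' differences was not tested.

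Within collagenase TM, the levels of some members followed the granulocyte precursor list from library to library. Over the 12 libraries, on log2(CPM + 1), Vpreb3 had Pearson r 0.865 (permutation p = 3.40e-04, adjusted p = 0.00612 over 18 relations) and Spearman rho 0.867 (permutation p = 6.20e-04, adjusted p = 0.0112). Without the 2 libraries farthest from the median of the list, r was 0.652. Within libraries 1 to 6 and 7 to 12, which differ in Xist, r was 0.941 and 0.813. Rag1 had r 0.719 (permutation p = 0.00639, adjusted p = 0.0230) and rho 0.720 (permutation p = 0.0103, adjusted p = 0.0462), with 0.738 without those 2 libraries and 0.835 and 0.895 within libraries 1 to 6 and 7 to 12.

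For Cd79a, r was 0.789 (permutation p = 0.00295, adjusted p = 0.0206) and rho 0.692 (permutation p = 0.0156, adjusted p = 0.0560), but 0.403 without the 2 farthest libraries and 0.144 within libraries 7 to 12, so that relation rests on few libraries. Cd79b had r 0.760 (permutation p = 0.00458, adjusted p = 0.0206) and rho 0.762 (permutation p = 0.00560, adjusted p = 0.0336), with 0.587 without the 2 farthest libraries and 0.759 and 0.627 within libraries 1 to 6 and 7 to 12. Fcrla had r 0.753 (permutation p = 0.00389, adjusted p = 0.0206) and rho 0.776 (permutation p = 0.00476, adjusted p = 0.0336), with 0.558 without them and 0.738 and 0.823 within the same sets. Mature and precursor genes were thus both among those that followed the list. Ms4a1 (r 0.586, permutation p = 0.0453), Igll1 (0.497, permutation p = 0.0973) and Vpreb1 (0.278, permutation p = 0.370) had adjusted p of at least 0.136. Dntt had r 0.155 (permutation p = 0.615) and rho 0.189 (permutation p = 0.557). Against the T cell list no member had an adjusted permutation p under 0.05. For 8 of the 9, r had opposite signs in libraries 1 to 6 and 7 to 12. It was -0.756 (Cd79a) to -0.455 (Ms4a1) in the former and -0.00638 (Ms4a1) to 0.968 (Rag1) in the latter. Without the 2 farthest libraries, T cell r was 0.772 for Cd79b, 0.754 for Rag1, 0.719 for Fcrla and 0.711 for Ms4a1. It was 0.564 for Vpreb3, 0.395 for Cd79a and -0.0698 to -0.0156 for Dntt, Igll1 and Vpreb1. The relation to the T cell list thus depended on the libraries included. These are relations within 1 group and share library depth.

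The genes most like Cd79a and Vpreb3 were taken over all 22 dura libraries, after each value was set relative to its group mean, among 15145 other genes. With members left out of the ranking, those for Cd79a were Ly6d (r 0.858), Spib (0.828), Pou2af1 (0.820), Cldn15 (0.808) and Trim10 (0.802). Of the members, Fcrla had r 0.811 with Cd79a, above Cldn15 and Trim10, and Cd79b 0.773. Ly6d is a surface protein of B lineage cells, and Pou2af1 is a coactivator of B cell transcription. Cldn15 and Trim10 were on none of the gene lists used here and were not assigned to a cell type. For Vpreb3 they were E2f2 (0.900), Nfe2 (0.896), Slc4a1 (0.893), Hemgn (0.888) and Cebpe (0.864). Nfe2, Slc4a1 and Hemgn belong to erythroid cells and Cebpe to maturing granulocytes. With Vpreb3, Rag1 had r 0.850, Cd79a 0.739 and Dntt 0.377. These are descriptions over libraries that share their depth and scaling.

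Some masseter libraries held RNA of salivary gland. The summed level of 11 salivary genes was 132063 CPM in library 3 of collagenase MM day 38, 76926 CPM in library 1 of collagenase TM day 28, 31360 CPM in library 2 of saline MM day 38, and 45216 and 7728 CPM in libraries 1 and 4 of saline MM day 28. In the other 12 libraries it was 43.1 to 285 CPM, the 3 libraries with most Rag1 counts included, and its part in the results was not tested.

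Masseter held far less of the precursor genes than dura. To hold read layout fixed, the single-end libraries of saline mice were compared. They were 10 from dura (both saline groups, 2 days) and 4 from masseter (saline MM, day 28), which still differ in tissue, injection site, day and Xist. Xist was at 283 to 332 CPM in the 4 masseter libraries, while in dura it was high in saline libraries 1 to 3 alone. All 5 precursor genes were higher in dura with no overlap, while edgeR called 0 of the 4 mature genes (1 at an unadjusted p under 0.05, as were 82.9% of all genes). Limma on TPM called all 4, and called 68.2% of all genes higher in dura. Over all 16156 genes tested, 42.1% were called higher in dura and 32.4% were higher with no overlap.

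Rag1 was at 0.733 to 1.68 CPM over the 10 dura libraries, against 0, 0.0607, 0 and 0 CPM in masseter libraries 1 to 4 (log2 5.70 ± 0.64, adjusted p = 1.19e-06). The masseter value is 1 count, against 341 counts in dura, so the ratio of summed counts per total was 119 with an exact 95% interval of 21.3 to 4726 that covers counting error only. Igll1 was at 0.383 to 1.71 CPM in dura, against 1 count in masseter (log2 5.20 ± 0.74, adjusted p = 1.45e-05; ratio 87.5, interval 15.6 to 3468). Vpreb1 was at 0.908 to 2.64 CPM in dura, against 3 counts in masseter (log2 4.88 ± 0.56, adjusted p = 1.59e-06; ratio 56.9, interval 19.4 to 277). Dntt (log2 3.99 ± 0.66, adjusted p = 6.42e-05) and Vpreb3 (2.89 ± 0.60, adjusted p = 4.95e-04) were higher in dura as well.

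The mature genes had 1 high masseter library. In library 3 of saline MM day 28, Cd79a, Cd79b, Ms4a1 and Fcrla had 422, 321, 250 and 68 counts, while in the other 3 libraries they had at most 7, 7, 0 and 3 counts. Without it, all 9 members were higher in dura, with log2 5.88 for Cd79a, 5.25 for Cd79b and 6.09 for Fcrla, and Ms4a1, then at 0 in the 3 masseter libraries, was at least 34.3-fold higher with 3 counts per library as the floor. With it, Cd79a differed by 1.06 ± 0.94 (adjusted p = 0.303), Cd79b by 1.03 ± 0.88 (adjusted p = 0.288), Fcrla by 1.95 ± 0.87 (adjusted p = 0.0519) and Ms4a1 by -0.17 ± 1.03 (adjusted p = 0.882).

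**Figure D3:**
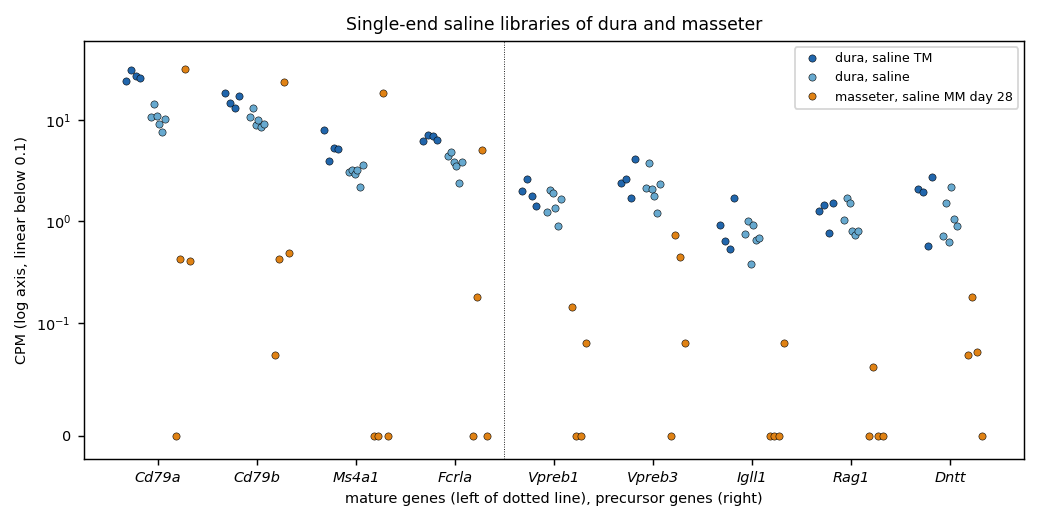
CPM of the 9 genes in the single-end saline libraries of dura (saline TM, n = 4; saline, n = 6) and masseter (saline MM day 28, n = 4), on a log axis that is linear below 0.1. For each precursor gene the masseter libraries lie below all dura libraries; for each mature gene 1 masseter library, library 3, lies among or above them.

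That library held mature B cell RNA with almost no precursor RNA. Its precursor genes had 6 counts of Vpreb3 and 1 of Dntt, with Vpreb1, Igll1 and Rag1 at 0, and made up 1.45% of the members' summed TPM. In the same library the complement receptor Cr2 had 209 counts, the T cell genes Cd3e and Lck 52 and 263, and the lymphatic chemokine Ccl21a 768, against at most 1, 1, 5 and 172 counts in the other 3. The myeloid genes Mpo and Elane were at 0 counts there. Its summed lymph node stroma list was 213 CPM, against 95.7 to 148 CPM in the other 3 libraries, and its summed T cell list 109 CPM, against 20.8 to 27.9 CPM. The part of lymphoid tissue in this library was not tested.

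In masseter after collagenase, few member reads were counted, and 6 of the 9 members passed the filter on low counts (Vpreb1, Igll1 and Dntt did not). At day 38, collagenase MM against saline MM, 0 of 6 were called, where 0.867% of all genes were called, 0 of 6 had an unadjusted p under 0.05 (17.8% of all genes did), and DESeq2 called 0. Cd79a had 3, 27 and 7 counts in collagenase MM libraries 1 to 3, against 0, 0, 3 and 1 counts in saline MM libraries 1 to 4 (log2 3.44 ± 2.12, adjusted p = 0.416). Cd79a, Ms4a1 and Fcrla did not overlap between the groups, where 8.67% of all genes were higher with no overlap. Those counts lie close to 0 in both groups.

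At day 52, collagenase MM was set against saline MM of day 38, so that day and treatment cannot be told apart. None of the 6 was called (0.758% of all genes were), and 3 had an unadjusted p under 0.05 (15.8% of all genes did). DESeq2 called 0 as well. Cd79a and Ms4a1 did not overlap between the groups, where 6.5% of all genes were higher with no overlap. Cd79a had 2, 4 and 79 counts in collagenase MM day 52 libraries 1 to 3 and 0, 0, 3 and 1 counts in saline MM day 38. Rag1 had 0, 0 and 46 counts in the same collagenase libraries and 1 count in all 4 saline libraries. Its log2 fold change was 5.25 ± 1.74 (adjusted p = 0.162), and without library 3 it was -1.54, so the difference is that of 1 library. Against collagenase MM day 38, day 52 also gave 0 of 6 called (0.0956% of all genes were), with 1 unadjusted p under 0.05 (Rag1, with 18.6% of all genes) and 0 by DESeq2.

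After collagenase in the temporal muscle, the masseter at day 28 held 9, 73 and 30 summed counts of the 5 precursor genes in libraries 1 to 3. The same sum was 3, 16, 7 and 3 in saline MM day 28 libraries 1 to 4. In saline MM day 38 it was 1, 5, 4 and 5. Rag1 had 2, 34 and 11 counts in collagenase TM day 28 libraries 1 to 3, against 1 count in library 2 and 0 in the other 3 libraries of saline MM day 38, and the same in saline MM day 28. The ratio of summed counts per total was 74.2 (exact 95% interval 12.7 to 2991) over saline MM day 38 and 66.7 (11.4 to 2691) over saline MM day 28. These intervals cover counting error only and not the spread between libraries, and 34 of the 47 counts came from library 2. The log2 fold changes were 5.52 ± 1.73 (adjusted p = 0.0541) and 5.49 ± 1.73 (adjusted p = 0.1003), so Rag1 did not pass the test. It entered the test only through libraries 2 and 3 of this group and library 3 of collagenase MM day 52, where it is high, so its lack of overlap with either control is a description.

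Igll1, which was not tested in masseter, had 0, 12 and 4 counts in these libraries, against at most 1 count in any library of either control. Vpreb3 had 2, 11 and 12 counts, against 0 to 12 in saline MM day 28 and 1 to 2 in saline MM day 38. Its log2 fold changes over these controls were 0.88 ± 1.10 and 2.50 ± 1.24 (edgeR adjusted p = 0.679 and 0.227). Of the 6 members tested, 0 were called against saline MM day 28 (2.95% of all genes were) or against saline MM day 38 (10.9%). At an unadjusted p under 0.05 the numbers were 1 and 2, where 21.3% and 25.5% of all genes had one. DESeq2 called 0 and 1, the 1 being Cd79a (log2 5.20), where it called 7.51% of all genes higher. Against saline MM day 38, Cd79a, Ms4a1 and Rag1 did not overlap (13.5% of all genes were higher with no overlap), and against saline MM day 28 Rag1 alone did not (9.41%). Against either control, layout, day or injection site differed too, and Xist was at 378 to 493 CPM in collagenase TM day 28 and 283 to 332 CPM in saline MM day 28, but at most 0.455 CPM in the other 3 masseter groups.

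Several lists, that of granulocyte precursors among them, were higher in collagenase TM day 28. That group held 47 Rag1 counts, against 46 in collagenase MM day 52. All 17 granulocyte precursor genes rose in collagenase TM day 28 against saline MM day 38, where 5.12% of all genes were called higher, and 8 rose against saline MM day 28, where 1.17% were. Against the same controls, 9 and 2 of 12 bone genes, 9 and 1 of 12 cell cycle genes and 4 and 0 of 13 erythroid genes rose. In collagenase MM against saline MM day 38, edgeR called 0 genes of these lists, but their median log2 fold changes were positive too. At day 38 and day 52 the medians were 3.77 and 4.80 for granulocyte precursor and 2.13 and 1.67 for bone genes. They were 1.84 and 1.52 for cell cycle and 2.26 and 2.54 for erythroid genes. The summed granulocyte precursor list was at 111, 849 and 425 CPM in collagenase TM day 28 libraries 1 to 3, against 6.48 to 12.1 CPM in saline MM day 38 and 6.95 to 67.7 CPM in saline MM day 28. Mpo, the myeloperoxidase of granulocyte precursors, had 110, 792 and 450 counts in those collagenase libraries, and 440 counts in library 3 of collagenase MM day 52, which held the 46 counts of Rag1. Cd3e, the T cell receptor chain, had 2, 0 and 0 counts in the collagenase TM day 28 libraries and 0 in that library of day 52. The part of marrow cells or of mature neutrophils in these counts was not tested.

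**Figure D4:**
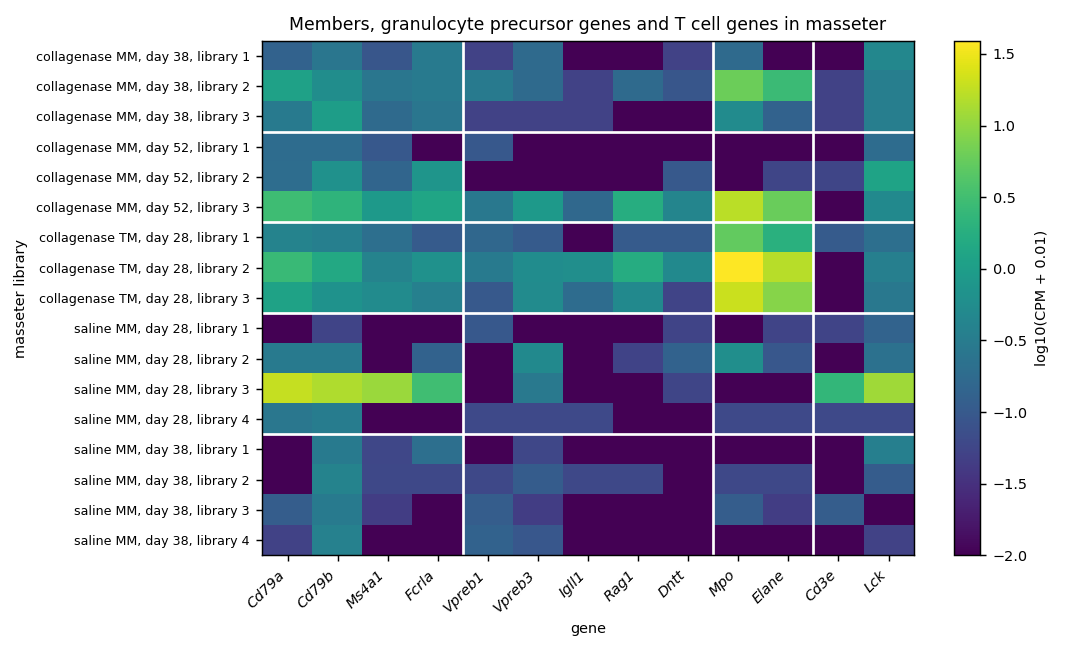
Log10(CPM + 0.01) of the 9 genes, of the granulocyte precursor genes Mpo and Elane and of the T cell genes Cd3e and Lck (columns) in the 17 masseter libraries (rows, by group). Library 3 of saline MM day 28 is high in the mature and T cell genes with Mpo at 0 counts; library 3 of collagenase MM day 52 and libraries 2 and 3 of collagenase TM day 28 are highest in Mpo and hold most Rag1 counts.

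Between the masseter saline groups, day 38 against day 28, 2 of 6 members tested were called lower, Cd79a (log2 -6.71 ± 2.00, adjusted p = 0.0259) and Ms4a1 (-6.22 ± 1.97, adjusted p = 0.0335), where 12.9% of all genes were called lower. Ms4a1 had 3 counts summed over the 4 day 38 libraries and 250 in day 28, all of them in library 3. The ratio of day 28 over day 38 was 92.6, with an exact 95% interval of 31.3 to 452 that covers counting error only. Both calls rest on library 3 of day 28: without it Cd79a was at -1.99 and no member was called. Ms4a1 had no test without that library, so it entered the test only through the library where it is high. Both calls also ended without any 1 of the 4 day 38 libraries, with Cd79a at -7.87 to -6.38 and Ms4a1 at -6.43 to -5.85 in those fits. These groups differ in day, layout and Xist, and their libraries overlapped for all 6 members tested.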

How the data were processed

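Per the labels' protocols, messenger RNA was captured with oligo-dT and made into stranded libraries, and the submitters' processing notes name bcl2fastq, Trim Galore, RSEM and the mm10 build, with no versions. Per the file headers, the authors deposited for each library and gene an RSEM expected count, which need not be whole, with TPM (per M transcripts, scaled for length), FPKM, length and effective length. FPKM as deposited by the authors was not used here. Read layout was told from length minus effective length (single-end 49.49 to 49.55 bases, paired-end 212.5 to 237).

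Expected counts were rounded and tested by quasi-likelihood in edgeR 4.0.16 (R 4.3.3) after filterByExpr and scaling by TMM, with 1 fit per tissue over all its groups and Benjamini-Hochberg adjustment over all genes tested (16363 in dura, 14652 in masseter, 16156 between tissues). CPM used TMM-scaled totals. The code was tested on simulated data. Alternatives were DESeq2 1.42.0, RLE size factors, no filter, an effective length offset, limma 3.58.1 on log2(TPM + 0.1), the compared groups alone, each library left out, subsets of the collagenase libraries and a replicate block between tissues. Correlations within collagenase TM used 100000 permutations. Intervals and floors (3 counts) cover counting error only.

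The members and gene lists were chosen with earlier results of these data known. Every member is named. Of each list, up to 4 genes with the smallest p could be named per comparison, besides sex-linked, brain, pituitary and muscle genes, and the 5 most like Cd79a and Vpreb3. Mpo, Elane, Cd3e, Lck, Cr2, Ccl21a and Mgp were named after their values were seen. All 108 pairs of libraries of 1 group differed by more than sampling noise.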

Additional observations from a re-analysis of the deposited data

Results flagged for a closer look

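Library 3 of masseter saline MM day 28 stood apart from the other 3 libraries of its group in all 4 mature genes, by a gap that took up most of the range of the group. Cd79a was at 19.2 CPM there (0 to 0.294 CPM in the others), Cd79b at 14.6 CPM (0.0437 to 0.311), Ms4a1 at 11.4 CPM (0 in each of the others) and Fcrla at 3.09 CPM (0 to 0.126). Of 23 groups of values checked, these 4 were picked out, and all come from the same library. Chance picks out about 1 in 20 groups, but 4 genes read in the same library are not independent picks, so the numbers cannot be set against each other.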

How the results depend on the processing

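The calls of the 4 mature genes against saline TM held under every alternative run. The number of members called lower in collagenase TM was 6 against each control. It was 5 to 8 against saline TM and 4 to 8 against saline with 1 library left out, and under the other alternatives 5 to 8 and 2 to 7, the 2 from collagenase libraries 1 to 6 alone. In saline TM against saline it was 1, with 2 by DESeq2, 4 in a fit of those groups alone and 0 to 1 with 1 library left out, and Igll1 ranged from -0.064 to 0.56 on the log2 scale. In masseter, DESeq2 called 1 member in collagenase TM day 28 against saline MM day 38. For saline MM day 38 against day 28, limma on TPM called 0, and 0 to 3 were called with 1 library left out. Rag1 in collagenase MM day 52 against saline MM day 38 ranged from -1.54 to 6.81 with 1 library left out. Between tissues, limma on TPM called 9, and 5 to 9 were called with 1 library left out. There Ms4a1 was -0.59 to 9.72 with 1 library left out, 3.90 with limma on TPM, 0.46 for saline TM alone and 4.85 for saline TM alone with the replicate block, which called 7 members against 5 without it. The numbers do not pair those libraries (correlations of deviations 0.0167, -0.00627, -0.123 and -0.00367). Beyond the libraries left out, the cause of these shifts was not tested. In masseter, a fit of the compared groups alone left no member to test in some comparisons, which gave no value. Depth limits the masseter values, where most members had under 10 counts.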
